A study of Mus musculus with 10 samples.

Results

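R2 cells are the CD71+Ter119+ erythroid cells of the bone marrow (BM), and their baseline transcriptome was described in the mice in which both *Ddx41* and *Trp53* were intact. The genotype label Ddx41+/+Trp53+/+ chose 3 of the 10 libraries of the series, one library per mouse, named replicates 10, 11 and 12. Recipients were BoyJ mice, lethally irradiated and given 1000000 BM cells from donors with the Rosa-CreERT2 transgene, an inducible Cre recombinase expressed from a ubiquitous locus. All recipients then received tamoxifen, 1 mg daily, in 2 rounds that each lasted 5 days, so the wild-type cells also carried Cre and were exposed to the drug. R2 cells were sorted at 8 weeks post-transplant, approximately 100000 per mouse, and the labels name no gate that separated donor from recipient cells. The labels give neither the sex nor the age of the mice. The libraries held 18795871, 20283930 and 14590345 counts in replicates 10, 11 and 12, the order in which all values by mouse are given below.

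In erythropoiesis, progenitors that depend on erythropoietin divide several times while they fill with hemoglobin, and they then leave the cell cycle and lose the nucleus. CD71 is the transferrin receptor, which brings in iron for heme, and Ter119 is a surface antigen of the erythroid lineage. GATA1 and KLF1 are the transcription factors that switch on the genes for globin, heme synthesis and the red cell membrane. The R2 gate holds cells in the dividing stage of this sequence, between early cells with little Ter119 and late Ter119+ cells that have lost CD71.

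The label was first checked against its markers. *Tfrc*, which encodes CD71, stood at 2940, 2950 and 3337 CPM (counts per 1000000 counts of the TMM-scaled library total), or 3076 ± 227 (SD, n = 3), rank 25 of all genes. *Gata1* stood at 439, 450 and 394 CPM and *Klf1* at 924, 921 and 864 CPM. All 3 markers were high in every mouse, and their values lay close together. *Ddx41* (chr13:55530410-55536658) was measured at 25.2, 22 and 22.7 CPM and *Trp53* (chr11:69580359-69591873) at 57.5, 57.7 and 59.2 CPM. Both genes were thus read in every wild-type mouse, at levels far under those of the markers.

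Of 24421 genes in the table, 9786 had no count in any of the 3 mice and 10021 reached 1 CPM in every mouse. The mean passed 10 CPM for 6818 genes, 100 CPM for 1923 and 1000 CPM for 129. The most abundant gene took 2.85% ± 0.0933 (SD, n = 3) of the counts, the top 10 took 9.60% ± 0.475, the top 100 took 28.3% ± 0.756 and the top 1000 took 66.9% ± 0.322. In single mice, 419, 435 and 408 genes held 50% of the counts. A level given for 1 mouse has a floor set by 3 counts, which was 0.159, 0.147 and 0.209 CPM, and this floor covers counting error only because PCR reads without molecular identifiers are not independent molecules.

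The most abundant gene was *Slc4a1* (chr11:102348824-102366203), which encodes band 3, the anion exchanger that anchors the red cell membrane to its skeleton. It stood at 28330, 27326 and 29849 CPM, or 28502 ± 1270 (SD, n = 3), and no other gene came near it in any mouse. The next was *Mki67*, the antigen Ki-67 of dividing cells, at 10437, 10827 and 11631 CPM. *Rn45s*, the precursor of ribosomal RNA, followed at 9716, 8375 and 11934 CPM, and its SD of 1798 CPM was the widest among the leading 20 genes. *Rn45s* is not polyadenylated, and its level in poly(A)-selected libraries depends on what the selection lets through.

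Genes of red cell function filled most of the remaining leading places. *Car2*, carbonic anhydrase 2, had 7955 ± 399 CPM, and *Alas2*, the erythroid enzyme for the first step of heme synthesis, had 7850 ± 709 CPM. *Cd24a*, a surface glycoprotein of erythroblasts, had 7565 ± 317 CPM, and *Gpx1*, which removes peroxides, had 6633 ± 638 CPM. *Slc25a37*, the mitochondrial iron importer mitoferrin, had 5959 ± 141 CPM. *Sptb*, *Epb4.1* and *Ank1* encode β-spectrin, protein 4.1 and ankyrin of the membrane skeleton. Their means were 5279 ± 239, 4729 ± 594 and 4049 ± 31.2 CPM. *Aqp1*, a water channel, had 4191 ± 188 CPM. *Prdx2*, a peroxidase of red cells, had 3869 ± 120 CPM, and *Fth1*, ferritin heavy chain, had 3833 ± 147 CPM. *Xpo7*, a nuclear export factor of maturing erythroblasts, had 3712 ± 553 CPM.

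The other leading genes were *Pabpc1*, which binds poly(A) tails (5271 ± 596 CPM), *Tmcc2* (4906 ± 604 CPM), *Ctse*, the protease cathepsin E (4548 ± 168 CPM), *Serinc3* (4372 ± 157 CPM) and *Eef1a1*, the translation elongation factor (3865 ± 294 CPM). Of the 20 most abundant genes, 12 belonged to 5 erythroid gene lists (surface proteins, transcription factors, heme synthesis and transport, membrane skeleton, and maturation). Of the 100 most abundant, 44 belonged to these lists, and 2, *S100a9* and *Ngp*, belonged to 9 lists of genes of other lineages. The plot of the leading genes by mouse shows that *Slc4a1* stood apart and that the places below it were separated by less than the spread between mice in many cases.

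**Figure D1:**
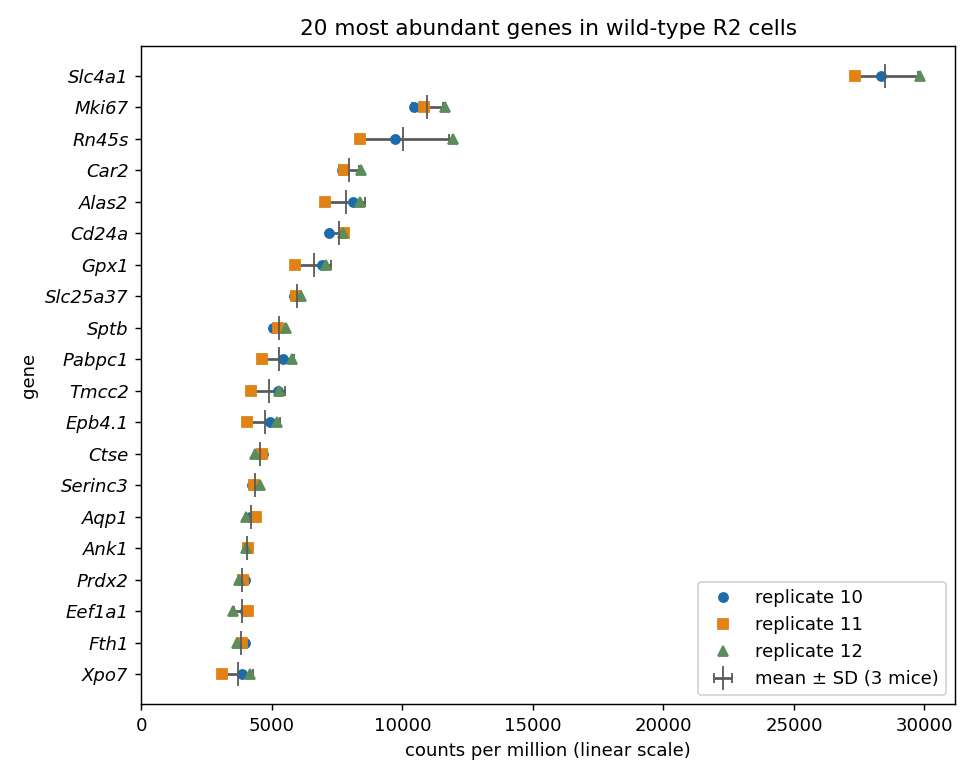
CPM (linear axis) of the 20 genes with the highest mean, 1 point per mouse (replicates 10, 11 and 12), with the mean ± SD of the 3 mice as a bar. Slc4a1 lies near 28502 CPM, apart from the next gene, Mki67, at 10965 CPM, and replicate 11 is the lowest mouse for Gpx1, Pabpc1, Tmcc2, Epb4.1 and Xpo7.

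Because a long transcript yields more reads, levels of different genes were compared per kilobase of exon (CPM per kb). On this scale *Slc4a1* still led, at 5827 ± 260 CPM per kb, followed by *Gpx1* at 4603 ± 443 CPM per kb. *S100a9*, which encodes a calcium-binding protein of neutrophils, came next at 3510 ± 867 CPM per kb, with single mice at 3146, 2884 and 4499. The high value was that of replicate 12, and the mean of *S100a9* differed by less than its SD from those of *Car2* (3284 ± 165), *Alas2* (3267 ± 295) and *Cd24a* (2932 ± 123 CPM per kb). *Ftl1*, ferritin light chain, stood at 1940 ± 22.3, *Rplp1*, a ribosomal stalk protein, at 1813 ± 226 and *Aqp1* at 1595 ± 71.6 CPM per kb. *Rplp1* and *Aqp1* also differed by less than the SD of *Rplp1*. *Mki67* fell from the second place in CPM to 1090 ± 60.5 CPM per kb, below *Fth1* at 1105 ± 42.5.

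Outside the globin genes, which are given further on and of which 2 of 12 reached 1 CPM in every mouse, nearly all genes of the erythroid lists were detected. Of the 108 genes on the 5 erythroid lists, 107 were in the table, 106 reached 1 CPM in every mouse, 85 had a mean of at least 100 CPM and 44 of at least 1000 CPM. The exception at 1 CPM was *Alox15*, a lipoxygenase of late reticulocytes, at 2.80, 0.782 and 2.43 CPM. Their summed level was 173318, 166441 and 178070 CPM, which is 17.3% of the CPM on the mean. Their median level of 202 CPM per kb lay far above the 5.27 CPM per kb that was the median of the 9958 genes with a length that reached 1 CPM in every mouse. The lists hold genes chosen for their known erythroid function, so their height describes the cells and is no test.

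**Figure D2:**
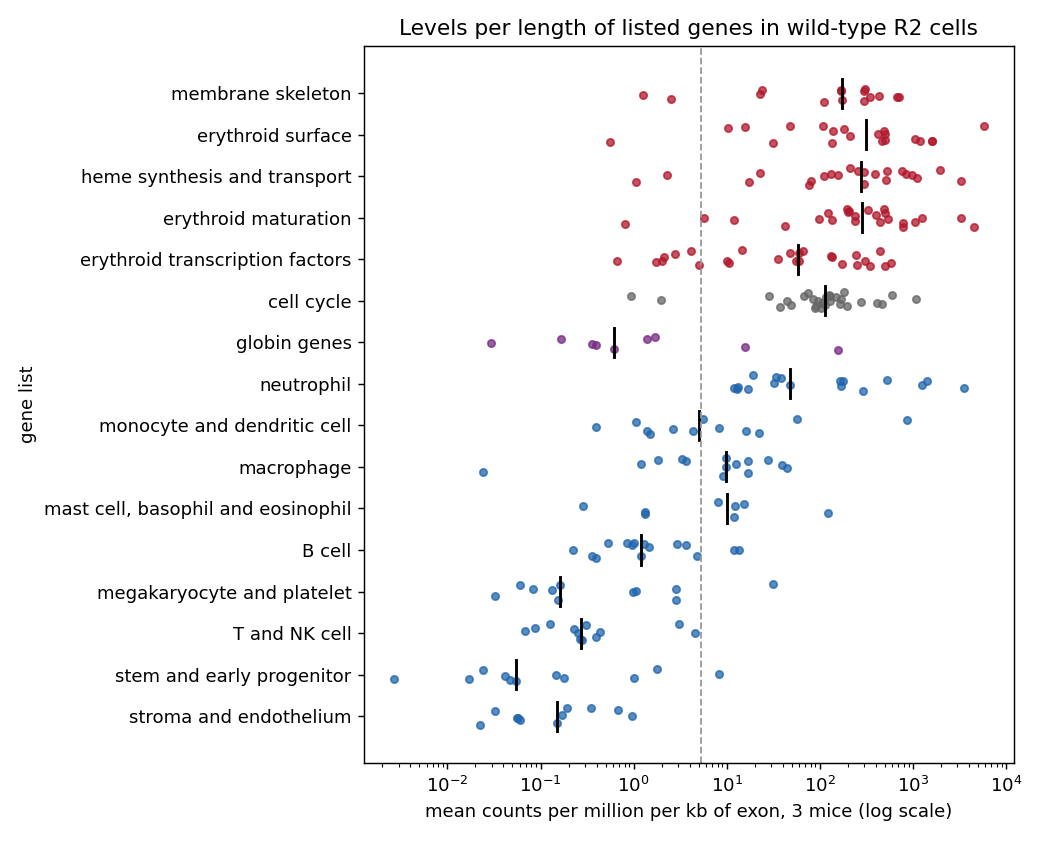
Mean level over the 3 mice, in CPM per kb of exon (log axis), of each gene with a count on 16 gene lists, with the list median as a black line. Red marks erythroid lists, purple globin genes, grey cell cycle genes and blue lists of other lineages, and the dashed line at 5.27 is the median of genes that reached 1 CPM in every mouse. The erythroid medians lie between 57.9 and 315, and among the other lineages only the neutrophil median, 47.7, comes near them.

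Among surface proteins, the receptor for erythropoietin, *Epor*, was read at 376, 391 and 327 CPM. *Kit*, the stem cell factor receptor that erythroid cells lose as they mature, was read at 5.02, 2.88 and 6.95 CPM. Per length, *Epor* stood at 183 ± 16.8 and *Kit* at 0.556 ± 0.228 CPM per kb. The RNA of some blood group proteins was abundant in every mouse. *Rhd* stood at 1187 ± 51.1 CPM per kb, *Rhag*, its membrane partner, at 503 ± 27.3, *Ermap*, the Scianna antigen, at 495 ± 9.23 and *Kel* at 472 ± 21.1. *Bsg*, basigin, a chaperone of lactate transporters, stood at 1065 ± 43.7 CPM per kb. *Cd44*, an adhesion molecule that declines along erythroid maturation, was at 10.4 ± 1.18 CPM per kb.

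Of the transcription factors, *E2f2*, which acts on the cell cycle of erythroblasts, had the highest level in CPM (2461, 2253 and 2688). *Zfpm1*, the GATA1 cofactor FOG1, had 1588, 1616 and 1432 CPM, and *Tal1*, a partner of GATA1 in the same complex, had 1317, 1348 and 1374 CPM. Per length, *Klf1* led the list with 590 ± 22.3 CPM per kb, ahead of *E2f2* (505 ± 44.5) and *Zfpm1* (441 ± 28.4). *Lmo2*, the bridging protein of the complex, stood at 344 ± 15.1 and *Gata1* at 175 ± 12.2 CPM per kb. The factors of earlier progenitors were near the bottom of the list. *Gata2*, which GATA1 replaces during erythroid commitment, was at 0.666 ± 0.386 CPM per kb and *Myb* at 2.11 ± 0.555. *Spi1*, the myeloid factor PU.1, was at 14.6 ± 1.35 CPM per kb.

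The genes of heme synthesis were read in every mouse. *Alas2* stood above the other enzymes given here per length, and *Alas1*, the form of that enzyme found in all tissues, stood at 2.28 ± 0.4 CPM per kb. Among later steps of the pathway, the levels were 533 ± 30.3 CPM per kb for *Alad*, 111 ± 5.16 for *Uros*, 514 ± 12.6 for *Urod*, 302 ± 10.6 for *Cpox*, 158 ± 8.46 for *Ppox* and 256 ± 12.9 for *Fech*, the ferrochelatase that inserts the iron. *Uros* was the lowest of these, and *Alad* and *Urod*, the highest, differed by less than the SD of *Alad*. *Flvcr1*, a heme exporter, was at 1.07 ± 0.231 CPM per kb. *Hmox1*, which breaks heme down, varied more between mice, at 171, 96.6 and 133 CPM.

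Beside *Sptb*, *Epb4.1* and *Ank1*, the skeleton genes included *Stom*, stomatin (1925 ± 66.2 CPM). *Sptb* far exceeded its non-erythroid counterpart, at 435 ± 19.7 CPM per kb against 1.26 ± 0.389 for *Sptbn1*. Among maturation genes, *Car2*, *Gpx1* and *Prdx2* led. *Bpgm*, which makes the 2,3-bisphosphoglycerate that sets the oxygen affinity of hemoglobin, was read at 2038, 1575 and 2279 CPM, and *Ube2o*, a ubiquitin enzyme that remodels the reticulocyte, at 1794, 1512 and 1928 CPM. Replicate 11 was the lowest mouse for 15 of 24 maturation genes, against 3546 of all 10686 genes tested.

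The cells carried the RNA of proliferation. All 29 cell cycle genes reached 1 CPM in every mouse and 27 had a mean of at least 100 CPM. After *Mki67*, the most abundant were *Rrm2*, a subunit of ribonucleotide reductase (1554, 1684 and 1755 CPM), and *Top2a*, the topoisomerase of mitosis (1296, 1420 and 1330 CPM). The exceptions under 100 CPM were *Ccnd2*, a D-type cyclin, at 8.46, 6.16 and 12.1 CPM and *Cdkn1a*, the cell cycle inhibitor p21, at 6.77, 6.75 and 7.72 CPM. *Ccnd3*, another D-type cyclin, stood at 103 ± 5.57 CPM per kb against 0.947 ± 0.318 for *Ccnd2*. The list summed to 25894, 27574 and 27566 CPM. Of the 29 genes, 21 were highest in replicate 11, against 3517 of all 10686 genes tested. The Y-linked genes *Ddx3y* (52.5, 52.5 and 56.7 CPM), *Eif2s3y* (50.7, 52.0 and 46.1 CPM) and *Uty* (13, 20.05 and 16.6 CPM) were read in every mouse, and *Xist*, the RNA of the inactive X chromosome, at 1.16, 0.489 and 0.278 CPM.

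Globin RNA, the main product of such cells, was close to absent from the counts. The 6 adult α- and β-globin genes in the table, *Hba-a1*, *Hba-a2*, *Hbb-bs*, *Hbb-bt*, *Hbb-b1* and *Hbb-b2*, had 9, 38 and 6 counts together. As CPM on the unscaled totals, this was 0.479 (exact binomial 95% interval 0.219 to 0.909), 1.87 (1.33 to 2.57) and 0.411 (0.151 to 0.895). The interval of replicate 11 lay above those of the other mice, and the intervals cover counting error only. Over all 10 libraries of the series the 6 genes had 136 counts, and *Hbb-bt* and *Hbb-b2* had 0 counts in each. The low counts therefore belonged to the whole table and not to the wild-type mice alone.

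By gene, *Hba-a1* (chr11:32283511-32284465) had 2, 13 and 3 counts, and *Hba-a2* (chr11:32296489-32297298) had 0, 4 and 2. *Hbb-bs* (chr7:103826534-103828096) had 0, 17 and 0 counts, and *Hbb-b1* had 7, 4 and 1. *Hbb-bt* (chr7:103812524-103813996) and *Hbb-b2* had none, which allows up to 0.159, 0.147 and 0.209 CPM in the 3 mice. Positions here and above were taken from GENCODE M21, on GRCm38. The symbols *Hbb-b1* and *Hbb-b2* name the β-globin genes of another haplotype, and no position was matched to them.

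The adult globin genes come in near-identical pairs, and the coding stretches around the base that differs are printed here to show how little separates the copies. The capital marks that base, and positions count from the first base of the start codon.
Hba-a1 coding bases 351 to 410: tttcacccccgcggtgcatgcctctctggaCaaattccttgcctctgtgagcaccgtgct
Hba-a2 coding bases 351 to 410: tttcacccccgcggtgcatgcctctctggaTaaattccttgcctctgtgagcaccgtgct
Hbb-bs coding bases 385 to 444: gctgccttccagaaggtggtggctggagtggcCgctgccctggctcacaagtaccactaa
Hbb-bt coding bases 385 to 444: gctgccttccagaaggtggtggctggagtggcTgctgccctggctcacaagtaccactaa

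The coding sequences of *Hba-a1* and *Hba-a2* differed at 1 of 429 bases, with an identical run of 380 bases, and those of *Hbb-bs* and *Hbb-bt* at 1 of 444 bases, with an identical run of 416. Of all stretches of 75 bases, the length of a read, 62.2% of the *Hba-a1* transcript and 81.0% of the *Hba-a2* transcript occurred in the other copy. For *Hbb-bs* and *Hbb-bt* the shares were 64.3% and 56.6%. A single read from a shared stretch fits both copies, but the reads were paired, and a pair is placed by both mates, so these shares are not shares of fragments. Whether reads that fit both copies were counted, and whether globin RNA was depleted before sequencing, is not given in the sources used here. The part of either in the low adult globin counts was not tested.

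The globin genes with the most reads were the θ-globin genes. *Hbq1b*, a θ-globin gene between the α-globin copies, had 2002, 2378 and 1741 counts (106, 116 and 121 CPM). Its near copy *Hbq1a* had 282, 118 and 108 counts, and 23.6% and 29.1% of the stretches of these transcripts were shared. Of the embryonic genes, which share no such stretch with another gene, *Hbb-y* had 22, 18 and 9 counts, *Hba-x* had 9, 14 and 8 and *Hbb-bh1* had 6, 47 and 7. *Hbb-bh2* had 1 count, in replicate 11. Replicate 11 was the highest mouse for *Hbb-bh1* as for the adult genes together, and *Hbb-y* was highest in replicate 10.

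Genes of other lineages were read in all mice. Of 121 genes on the 9 lists, 115 were in the table, 70 reached 1 CPM in every mouse, and they summed to 9054, 8012 and 12157 CPM, 0.974% of the CPM on the mean. In bulk samples, fewer cells of a type and less RNA per cell cannot be told apart. Which cells carried this RNA was not tested.

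Neutrophil genes made up most of it. All 17 in the table reached 1 CPM in every mouse, and their sum was 6194, 5859 and 9349 CPM. *S100a9* stood at 1642, 1506 and 2349 CPM, *Ngp*, a granule protein, at 1329, 1308 and 2002 CPM, and *Ltf*, lactoferrin, at 834, 818 and 1336 CPM. Replicate 12 was the highest mouse for all of these, and the other mice lay close to each other. The monocyte and dendritic cell list summed to 1501, 1356 and 1547 CPM, of which *Lyz2*, the lysozyme of myeloid cells, was 76.9%. It was followed by *Csf1r*, the receptor for macrophage colony-stimulating factor (123, 73.6 and 83.8 CPM), and *Ctss*, cathepsin S (92.3, 72.5 and 67.8 CPM).

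Macrophages nurse erythroblasts in islands of the marrow. Their genes summed to 743, 437 and 738 CPM. Replicate 11 was the lowest mouse for all 13 macrophage genes tested, against 3546 of all 10686 genes tested. The most abundant were *Slc40a1*, the iron exporter ferroportin (156, 137 and 162 CPM), *Vcam1*, the adhesion molecule of the island macrophage (98.2, 52.7 and 110 CPM), and *Axl*, a receptor for dying cells (99.8, 50.2 and 104 CPM). *Slc40a1* varied less than *Vcam1* and *Axl*. It is also expressed by erythroid cells, and which cells carried its RNA here was not tested. *Marco* had no count in 2 mice and 0.139 CPM in replicate 12, under the floor of 3 counts.

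B cell genes were low, with 115, 56.0 and 120 CPM over 15 genes. *Cd79b* (27.1, 9.73 and 21.3 CPM) and *Cd79a* (18.5, 11.05 and 23.02 CPM), the chains that signal for the B cell receptor, led. Replicate 11 was the lowest mouse for all 13 B cell genes tested, against 3546 of all 10686 genes tested. The list of mast cells, basophils and eosinophils summed to 346, 163 and 242 CPM. Its leading genes were *Prg2*, the eosinophil major basic protein (174, 33.2 and 102 CPM), *Il1rl1*, the interleukin 33 receptor (82.6, 88.1 and 77.9 CPM), and *Epx*, eosinophil peroxidase (53.6, 12.6 and 34.3 CPM). *Prg2* and *Epx* ran in the same order of mice, and *Il1rl1* did not. The mast cell proteases *Cma1* and *Tpsb2* had 0 counts in every mouse.

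Low sums were also found for the lists of megakaryocytes and platelets (92.9, 94.6 and 104 CPM), T and NK cells (23.4, 18.3 and 21.97 CPM), stem and early progenitor cells (19.8, 19.3 and 22.7 CPM) and stroma and endothelium (18.4, 9 and 12.03 CPM). *Vwf*, von Willebrand factor, was 47.1% of the megakaryocyte sum at 45.2, 45.4 and 46.9 CPM. It was followed by *Gp9* (22.2, 29.5 and 30.7 CPM) and *Itga2b* (17.6, 13 and 15.6 CPM), and *Gp6* and *Treml1* had 0 counts. Of the T and NK genes, *Lck*, a kinase of T cell receptor signalling, stood at 14.7, 13.1 and 12.7 CPM, *Nkg7* at 3.81, 1.52 and 3.06 and *Cd3g* at 1.16, 0.538 and 1.32. Of the stem cell genes, *Cd48* stood at 10.2, 9.73 and 9.94 CPM, *Sox4* at 5.87, 3.42 and 5.35 and *Ly6a* at 2.27, 1.86 and 2.29. Of the stromal genes, *Pecam1* stood at 7.88, 3.91 and 6.26 CPM, *Cxcl12* at 3.44, 1.76 and 3.27 and *Col1a1* at 1.59, 0.782 and 0.626. Each of these 4 lists summed to less than *Gata1* alone in every mouse.

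The spread between the 3 mice was then compared with that of genes of the same abundance. Over the 10021 genes that reached 1 CPM in every mouse, the median absolute difference in log2 CPM was 0.16 between replicates 10 and 11, 0.17 between 10 and 12 and 0.18 between 11 and 12, and 231 to 273 genes differed over 2-fold in a pair. Across genes, which are not independent replicates, log2 CPM correlated with Pearson's r of 0.987 to 0.988 and Spearman's rho of 0.988 in each pair. The common biological coefficient of variation was 14.6%. By edgeR's goodness-of-fit test with adjustment over 10686 genes, 6423 (60.1%) varied beyond counting error, and 69 (0.646%) varied beyond the trend of genes of like abundance (adjusted p under 0.05). Called below means beyond this trend.

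Of the erythroid lists, 1 of 107 genes was called, *Hmox1* (adjusted p = 0.00701, edgeR), a share near that of all genes. Beyond counting error, 101 of 107 varied, against 60.1% of all genes tested. That test detects smaller differences in genes with more counts, so its shares depend on abundance. A mean of at least 100 CPM was reached by 85 of the 107, against 1923 of all 10686 genes tested. *Ank1*, at 4062, 4072 and 4014 CPM, was among the 101. *Hmox1* was not called without replicate 10 or without replicate 11. Their median SD of log2 CPM was 0.09, against 0.16 for all genes tested, most of which were less abundant. Of the 9 lists of other lineages, 25 of 76 genes tested were called (32.9%), with a median SD of log2 CPM of 0.46. Without replicate 10, 11 or 12, the calls in these lists came to 15, 7 and 14. Replicate 11 was the lowest mouse for 57 of these 76 genes, against 3546 of all 10686 genes tested. No gene of the cell cycle list was called (0 of 29), and 25 of them varied beyond counting error by the edgeR test. The shares called stand against 0.646% over all genes, and those beyond counting error against 60.1%. The lists were not tested against each other.

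**Figure D3:**
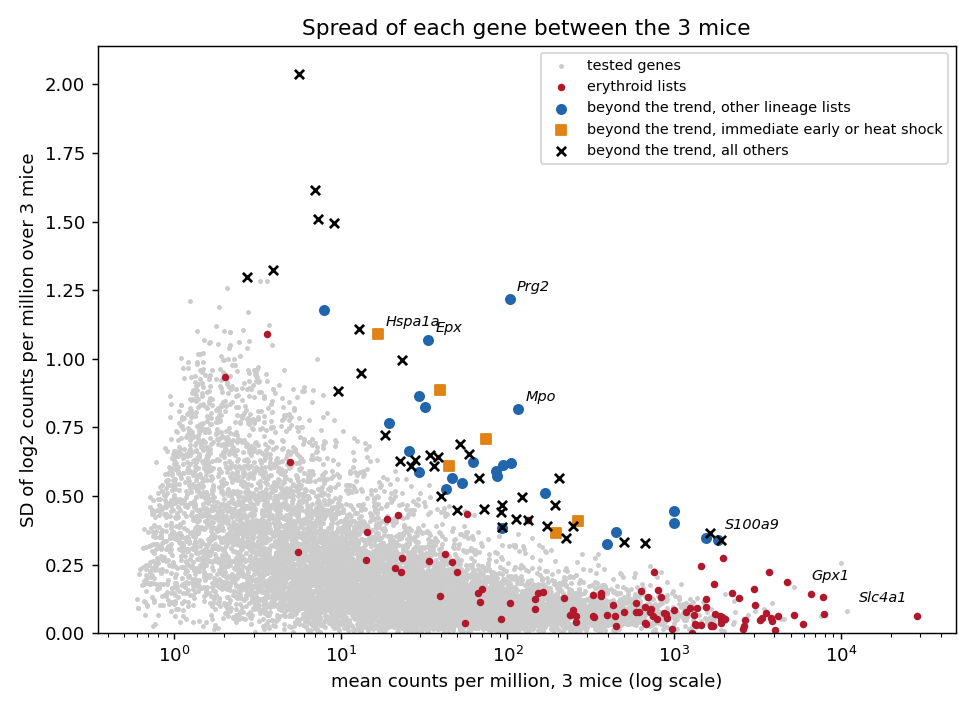
SD over the 3 mice of log2 CPM against the mean CPM (log axis) of each of 10686 genes tested. Grey points are all genes tested, red the erythroid lists, and the other symbols the 69 genes beyond the trend, by list. Prg2, Epx and Mpo lie high above the grey points, and Slc4a1, at an SD of 0.06, lies near the bottom. The median SD of the erythroid lists is 0.09, and some of their abundant genes, such as Xpo7 at 0.22, lie higher.

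Of the 69 called genes, 37 belonged to none of the lists. Among those with a mean of at least 10 CPM, the 10 with the largest SD of log2 CPM were named. *Prg2* had the largest SD, 1.22 (adjusted p = 7.79e-28, edgeR), and *Epx*, the other eosinophil granule gene, had 1.07 (9.67e-10). Both were lowest in replicate 11 and highest in replicate 10. The primary granule genes of early neutrophils were lowest in replicate 11 too. *Mpo*, myeloperoxidase, stood at 154, 55.1 and 139 CPM (SD of log2 CPM 0.82), *Elane*, neutrophil elastase, at 43.1, 15.0 and 37.4 CPM (0.82) and *Prtn3*, proteinase 3, at 42.4, 13.4 and 32.6 CPM (0.86). These 3 calls rest on replicate 11, without which the SD was 0.11 for *Mpo*, 0.14 for *Elane* and 0.27 for *Prtn3* and none was called (adjusted p = 0.999 for each, edgeR). *Epx* was not called without replicate 11 either (SD 0.46, adjusted p = 0.563, edgeR), and *Prg2* was (SD 0.55, adjusted p = 0.00792, edgeR).

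The heat shock genes *Hspa1a* (17.2, 27.1 and 6.12 CPM) and *Hspa1b* (41.6, 59.3 and 17.8 CPM), which encode the same inducible HSP70 protein from near-identical copies, ran the other way, with replicate 11 highest and replicate 12 lowest. Their split between the copies is uncertain. *Stag3*, a meiotic cohesin subunit, stood at 38.6, 9.68 and 21.8 CPM, *Aoc3*, an amine oxidase, at 23.95, 9.24 and 6.68 CPM and *Rnaset2b*, a ribonuclease with a near copy, at 13.6, 20.4 and 4.52 CPM. *Stag3* was highest in replicate 10 and lowest in replicate 11, as *Prg2* was, *Aoc3* was lowest in replicate 12, and *Rnaset2b* had the order of the heat shock genes. Without replicate 12, *Hspa1a*, *Hspa1b* and *Rnaset2b* were not called, with an SD of log2 CPM of 0.46, 0.36 and 0.41 over the other mice. *Aoc3* was not called without replicate 10 (SD 0.33), *Stag3* neither without replicate 10 (0.82) nor without replicate 11 (0.58), and *Hspa1a* and *Rnaset2b* also not without replicate 11 (1.04 and 1.11).

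Of 17 neutrophil genes 12 were called (70.6%), 13 of 17 were highest in replicate 12 and 14 of 17 were lowest in replicate 11. Over all 10686 genes tested, 3732 were highest in replicate 12 and 3546 were lowest in replicate 11. When the list was divided by granule type, after its values were seen, the primary granule genes *Mpo*, *Elane*, *Prtn3* and *Ctsg* summed to 254, 90.2 and 226 CPM and all 4 were lowest in replicate 11. The 9 genes of later granules and cytosol (*S100a8*, *S100a9*, *Ltf*, *Camp*, *Ngp*, *Lcn2*, *Mmp8*, *Mmp9* and *Retnlg*) summed to 5607, 5441 and 8702 CPM and all 9 were highest in replicate 12. Replicate 11 was the lowest mouse for 7 of these 9 as well. *Chil3*, *Csf3r*, *Fcnb* and *Cebpe* were placed in neither group. Of these, *Fcnb* was highest in replicate 10 and the others in replicate 12.

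Of 13 macrophage genes tested, 8 were called (61.5%), among them *C1qa* (62.4, 28.8 and 47.5 CPM), *C1qb* and *C1qc*, the subunits of complement C1q, and *Adgre1*, the antigen F4/80 (35.5, 17.4 and 35.3 CPM). All were lowest in replicate 11. The macrophage calls rest on replicate 11, since without it 0 macrophage genes were called, while 6 neutrophil genes were. Without replicate 12, 6 macrophage and 3 neutrophil genes were called, and without replicate 10, 4 and 8. In the B cell list 2 of 13 were called (*Cd79b* and *Rag1*), in the mast cell, basophil and eosinophil list 2 of 7 (*Prg2* and *Epx*), in the monocyte and dendritic cell list 1 of 12 (*Csf1r*), and none of the 3 T and NK, 4 megakaryocyte, 4 stem cell and 3 stromal genes tested.

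**Figure D4:**
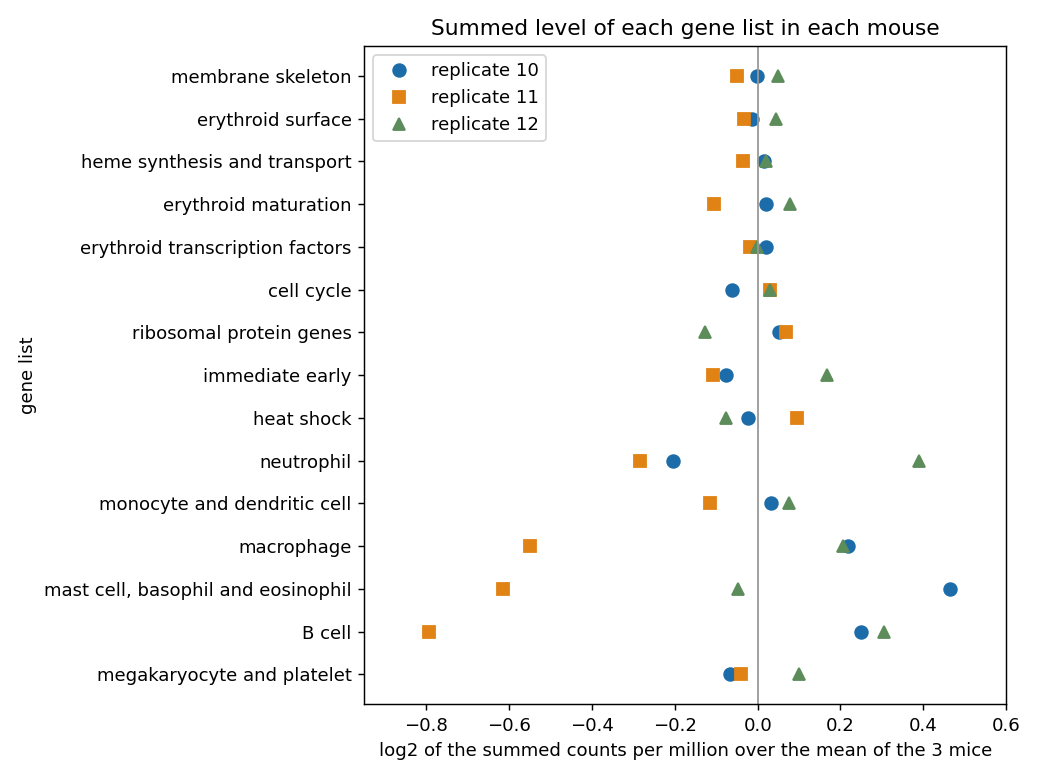
Summed CPM of each of 15 gene lists in each mouse, as log2 of the ratio to the mean of the 3 mice, with 1 symbol per mouse. The erythroid lists lie near 0, replicate 12 lies to the right for neutrophil genes (9349 CPM against 6194 and 5859), and replicate 11 lies to the left for macrophage, eosinophil and B cell lists.

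Stress genes were described last. Of 19 immediate early genes tested, which respond within minutes to a stimulus, 4 were called (21.1%). *Fos* stood at 234, 205 and 353 CPM, *Jun* at 167, 164 and 257, *Klf2* at 61.4, 44.3 and 116 and *Egr1* at 37.4, 29.5 and 67.2. Replicate 12 was the highest mouse and replicate 11 the lowest for these 4. Each by itself, the same held for 12 of the 19, against 3732 and 3546 of all 10686 genes tested. The most abundant of the list, *Btg2* (573, 542 and 579 CPM), *Jund* (408, 446 and 518 CPM) and *Dusp1* (350, 405 and 391 CPM), were not called. Of 13 heat shock genes tested, 2 were called (15.4%), *Hspa1a* and *Hspa1b*. Of the 13, 11 were highest in replicate 11, against 3517 of all 10686 genes tested. The calls in both stress lists, 6 together, came to 5 without replicate 10, 3 without replicate 11 and 1 without replicate 12. The most abundant, *Hspa5* (720, 705 and 731 CPM), *Hspa8* (670, 719 and 574 CPM) and *Hsp90ab1* (552, 615 and 528 CPM), were not called, and *Hspb1* had 0 counts in every mouse.

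Of 75 ribosomal protein genes tested, 0 were called, and 73 varied beyond counting error by the edgeR test, against 60.1% of all genes. These genes were abundant, with 74 at a mean of at least 100 CPM, and that test detects smaller differences in abundant genes. They summed to 38462, 38957 and 33982 CPM, and 74 of 75 were lowest in replicate 12, against 3578 of all 10686 genes tested. Replicate 12 also had the fewest counts and read short genes a little less. Its median log2 CPM less the mean of the other mice was -0.05 over the 2655 genes with the shortest exons and 0.05 over the 2653 with the longest. Replicate 10 read genes of low GC content less, with a median of -0.07 over the 2662 genes of lowest GC content and 0.05 over the 2647 of highest. For replicate 12 the medians were 0.06 and -0.04 over the same genes. The part of length and GC content in the ribosomal protein levels was not tested.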

How the data were processed

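Messenger RNA of sorted R2 cells was sequenced, 1 library per mouse. The authors deposited raw counts per gene symbol, without normalization, and these were used as deposited. The submitters' processing notes name FastQC 0.11.7, HISAT2 2.0.5, featureCounts 1.5.2 and mm10. Settings for strand and for reads that map to several genes, and the annotation, are not given in the sources used here. The labels name a stranded TruSeq mRNA kit and the paper a TruSeq v2 kit with poly(A) selection. Mice 35 and 45, which the deposited table is named as leaving out, were not analysed here. The 10 libraries held 7866648 to 20283930 counts.

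CPM were computed on TMM-scaled totals of the 3 libraries (edgeR 4.0.16, R 4.3.3), and a prior count of 2 was added for log2 CPM. CPM per kb used the union of exons in GENCODE M21 (GRCm38). Of 24421 symbols, 23334 matched directly and 664 through a RefSeq synonym, and 423, such as *Rn45s*, had no length. The matched symbols held 98.56% of counts. Spread was tested on 10686 genes kept by edgeR's filter, with an intercept-only negative binomial model, the trended dispersion of the 3 libraries and a goodness-of-fit test, adjusted by Benjamini-Hochberg. The same test with dispersion 0 gave the spread beyond counting error. With 3 mice, p-values measure only the spread between these samples. The procedure was tested on simulated data. DESeq2 1.42.0 was an alternative, beside other scalings, filters, dispersions, gene lengths and each mouse left out. Shared sequence was measured on the longest transcript of each gene in GENCODE M21. Figures were drawn in Python 3.11.15 with matplotlib 3.10.9.

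The members and gene lists were chosen with earlier results of these data known. Genes named are the 20 highest in CPM and the 10 highest in CPM per kb, the markers, *Ddx41*, *Trp53*, the 3 most abundant genes and those with 0 counts in each list, all globin genes of the table, and the 10 called genes with the largest SD of log2 CPM and a mean of at least 10 CPM. Some genes that this rule names are not reported here. Other genes were named for their role or after their values were seen. *Ahsp*, *Ly6g*, *Hbb-bh0* and the antigen receptor constant genes *Ighm*, *Igkc*, *Trac*, *Trbc1* and *Trbc2* were not analysed here, nor were genes encoded by mitochondria. A search for GATA and KLF motifs in promoters was void because promoter sequence was matched for under 80% of the listed genes (81 of 107).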

Additional observations from a re-analysis of the deposited data

How the results depend on the processing

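With the test of spread, a common dispersion called 260 genes in place of 69 (36 of the 69 among them), the trend estimated over all 10 libraries called 125 (all 69 among them) and dispersion 0 called 6423. Leaving out 1 mouse at a time called 27 to 29 genes. DESeq2 marked 65 genes as dispersion outliers, all among the 69. Without its most abundant gene, the mean sum fell to 7.74 CPM for the T and NK cell list, 339 for the monocyte and dendritic cell list, 51.4 for the megakaryocyte list, 147 for the mast cell, basophil and eosinophil list, 10.7 for the stem cell list and 7.13 for the stromal list. The other 97 values for whole lists and rankings moved by less than the spread between mice, or for counts by less than 1.5 times. Among them, 7 of the 10 highest genes per kb were kept when the longest transcript replaced the union of exons. *Prg2* was called in 10 of 10 settings and the other 9 genes with the largest spread in 8 or 9. The depth limits values near the floor, adult globin genes above all. No paired analysis was possible because a single genotype was described and its replicate numbers are shared with no other group.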

Other observations

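Some called genes lay outside every list and were picked after their values were seen. Among them were 3 genes that act in antigen presentation by MHC class II, each highest in replicate 10 and lowest in replicate 12: *H2-Ab1* stood at 87.0, 54.9 and 35.05 CPM, *H2-Aa* at 96.7, 61.2 and 44.3 CPM and *Cd74*, the invariant chain, at 266, 169 and 142 CPM. *Jchain*, the joining chain of polymeric antibodies made by plasma cells, followed the same order of mice, at 158, 127 and 80.7 CPM. The B cell list did not share this order, since replicate 12 had the highest sum of B cell genes.

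*Rsad2*, known as an interferon-induced antiviral gene, stood at 1464, 1332 and 2145 CPM, and *Apol11b* stood at 1791, 1532 and 2430 CPM. Both were called, and both were highest in replicate 12 and lowest in replicate 11, as were *B2m*, the light chain of MHC class I (683, 512 and 802 CPM), and *Ube2h*, a ubiquitin-conjugating enzyme (523, 382 and 599 CPM). *Apoe*, which encodes apolipoprotein E, was lowest in replicate 11 like the macrophage list, at 259, 124 and 225 CPM. *Rbm44* had the largest SD of log2 CPM of all called genes, 2.04, at 2.80, 0.684 and 13.3 CPM, and *Srp54b*, which has near copies, followed with 1.61, at 1.43, 14.2 and 5.28 CPM.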
